A study of Mus musculus with 12 samples.

Results

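Hemoglobin and erythroid transcripts were followed in CD8 T cells from mouse spleen, taken before and after an allogeneic transplant. The members were 6 genes chosen by symbol, of 35855 genes summed from the deposited transcripts. Hba-a1 and Hba-a2 encode the alpha chain of adult hemoglobin, and Hbb-bs and Hbb-bt encode the beta chain. Alas2 encodes the enzyme of the first step of heme synthesis in red cell precursors, and Slc4a1 encodes band 3, the anion exchanger of the red cell membrane. All 6 had counts in all 12 libraries.

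The 12 libraries formed 4 groups of 3 on the C57BL/6 background. WT cells came from mice labelled wild type. TCF-1 cKO cells, labelled TCF-7 cKO after the gene that encodes TCF-1, came from flox/flox mice in which Cre under CD4 control deletes the gene in the T lineage, which does not include red cells. The pre-transplant libraries held donor CD8 T cells sorted from the spleen. For the day 7 libraries, donor T cells of either genotype were given to lethally irradiated BALB/c hosts together with T-cell-depleted WT bone marrow, and donor CD8 T cells were sorted back from the host spleen 7 days later. Host red cells and their precursors, and any that grew from the WT marrow, therefore did not carry the deletion in either day 7 group. Per the study's methods the donors were female and matched for age, as far as could be done, to one another and to the hosts. The labels do not say whether replicates came from separate mice, so p-values may measure technical spread only.

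Hemoglobin carries oxygen as a tetramer of alpha and beta chains, each holding 1 heme. Alpha and beta genes lie in separate clusters on different chromosomes and are switched on together by GATA1, TAL1 and KLF1 as erythroblasts mature. Reticulocytes lose the nucleus but keep globin mRNA for some time, and the mouse spleen is a site of red cell production that expands under stress. In a mixed RNA sample, fewer cells of a type and less RNA per cell cannot be told apart.

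The genes lie on 3 chromosomes of the GRCm38 build. Hba-a1 (ENSMUSG00000069919) spans chr11:32283511-32284465 and Hba-a2 (ENSMUSG00000069917) spans chr11:32296489-32297298. Slc4a1 (ENSMUSG00000006574) lies farther along the same chromosome, at chr11:102348824-102366203. Hbb-bs (ENSMUSG00000052305) spans chr7:103826534-103828096, Hbb-bt (ENSMUSG00000073940) spans chr7:103812524-103813996, and Alas2 (ENSMUSG00000025270) spans chrX:150547375-150570638. RefSeq promoter windows were held for 5 of the 6 members. They are shown because these members moved together, as the 250 bases before the RefSeq transcription start, 5′ to 3′ on the gene's own strand. Capitals mark matches, on either strand, to GATAA (the core bound by GATA factors), CACCC (the core bound by KLF1 and related factors), CCAAT and TATAA.
Hba-a1, chr11:32283422-32283671, plus strand: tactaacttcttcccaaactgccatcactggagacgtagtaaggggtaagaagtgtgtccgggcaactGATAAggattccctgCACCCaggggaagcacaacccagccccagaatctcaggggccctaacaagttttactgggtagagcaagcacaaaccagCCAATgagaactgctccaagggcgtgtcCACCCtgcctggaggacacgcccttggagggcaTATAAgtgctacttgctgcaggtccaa
Hbb-bs, chr7:103827929-103828178, minus strand: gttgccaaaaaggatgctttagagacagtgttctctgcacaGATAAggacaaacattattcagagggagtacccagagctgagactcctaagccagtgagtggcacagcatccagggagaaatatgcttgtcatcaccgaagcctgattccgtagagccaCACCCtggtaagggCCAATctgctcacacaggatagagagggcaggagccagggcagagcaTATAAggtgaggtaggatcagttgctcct
Hbb-bt, chr7:103813924-103814173, minus strand: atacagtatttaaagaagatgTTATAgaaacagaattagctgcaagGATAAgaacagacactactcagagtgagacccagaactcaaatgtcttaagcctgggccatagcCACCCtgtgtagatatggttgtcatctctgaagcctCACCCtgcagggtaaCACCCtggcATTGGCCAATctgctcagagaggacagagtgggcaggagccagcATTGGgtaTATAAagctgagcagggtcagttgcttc
Alas2, chrX:150547167-150547416, plus strand: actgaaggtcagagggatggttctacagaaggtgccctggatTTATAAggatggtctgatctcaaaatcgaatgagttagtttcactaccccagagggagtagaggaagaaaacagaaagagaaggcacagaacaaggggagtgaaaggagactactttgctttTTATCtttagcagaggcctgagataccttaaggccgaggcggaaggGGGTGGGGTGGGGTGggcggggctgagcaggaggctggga
The Hba-a2 window was not printed since it held the same letters as that of Hba-a1, shifted by 3 bases (247 of 247 aligned bases). The Hbb-bs and Hbb-bt windows were 51.0% identical without gaps. Every motif was found in the 4 globin windows, and the Alas2 window lacked the CCAAT letters alone. In Hbb-bt that motif stood on both strands side by side, in Alas2 the KLF1 core was repeated on the opposite strand without a gap, and the Alas2 TATA motif overlapped its own reverse match. The TATA motif nearest the start began 27 to 30 bases before it in each globin gene and 207 bases before it in Alas2. Such short motifs are common. Of 32851 windows of the same length, 22.6% held the GATA core, 52.0% the KLF1 core, 33.9% the CCAAT letters and 22.8% the TATA motif. A match describes the letters only.

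Totals ran from 4499032 to 9535215 counts in the TCF-1 cKO pre-transplant group and from 18134802 to 32551712 in the 9 other libraries. Tcf7 was lower in TCF-1 cKO than in WT cells in every pre-transplant library (56.8 to 97.1 against 115 to 205 CPM, counts per 1000000 counts of a library), but overlapped at day 7 (8.999 to 9.48 against 6.89 to 17.2 CPM), and neither difference passed the edgeR quasi-likelihood test (Benjamini-Hochberg adjusted p = 0.22 and 0.31). The pre-transplant libraries went against their label as sorted T cells. Summed over 10 B-cell markers they held 10140 to 18290 CPM, more than the 1293 to 3967 CPM of 13 T-cell markers, and at day 7 these sums were 237.6 to 478.1 and 10100 to 14690 CPM. No B-cell marker was at 0 in any group. The second TCF-1 cKO library of day 7 has CD8 in its title and CD4 in its source label. It held 432 CPM of Cd8a and 1.42 CPM of Cd4 and was kept as titled, with values without it given where a call rests on it.

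Before transplant, hemoglobin mRNA was abundant in the libraries of both genotypes. Together the 4 globin genes took 0.442, 1.73 and 1.30% of counts in the WT libraries and 1.76, 0.483 and 2.60% in the TCF-1 cKO libraries. The lowest and highest library of a group differed 3.91-fold in WT and 5.39-fold in TCF-1 cKO cells, and the genotypes overlapped. At day 7 the same share was 0.0245, 0.119 and 0.0198% in WT and 0.0212, 0.0243 and 0.0543% in TCF-1 cKO libraries. The highest day 7 library still held 3.71-fold less than the lowest pre-transplant library. The 95% Clopper-Pearson interval of these shares, which covers counting error only, reached at most 3.28% of the value to either side, so that the spread between libraries was far larger than counting error. As a share of TPM (transcript abundance divided by length, again per 1000000), the 4 genes made up 1.197 to 5.63% before transplant and 0.0374 to 0.2998% at day 7.

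**Figure D1:**
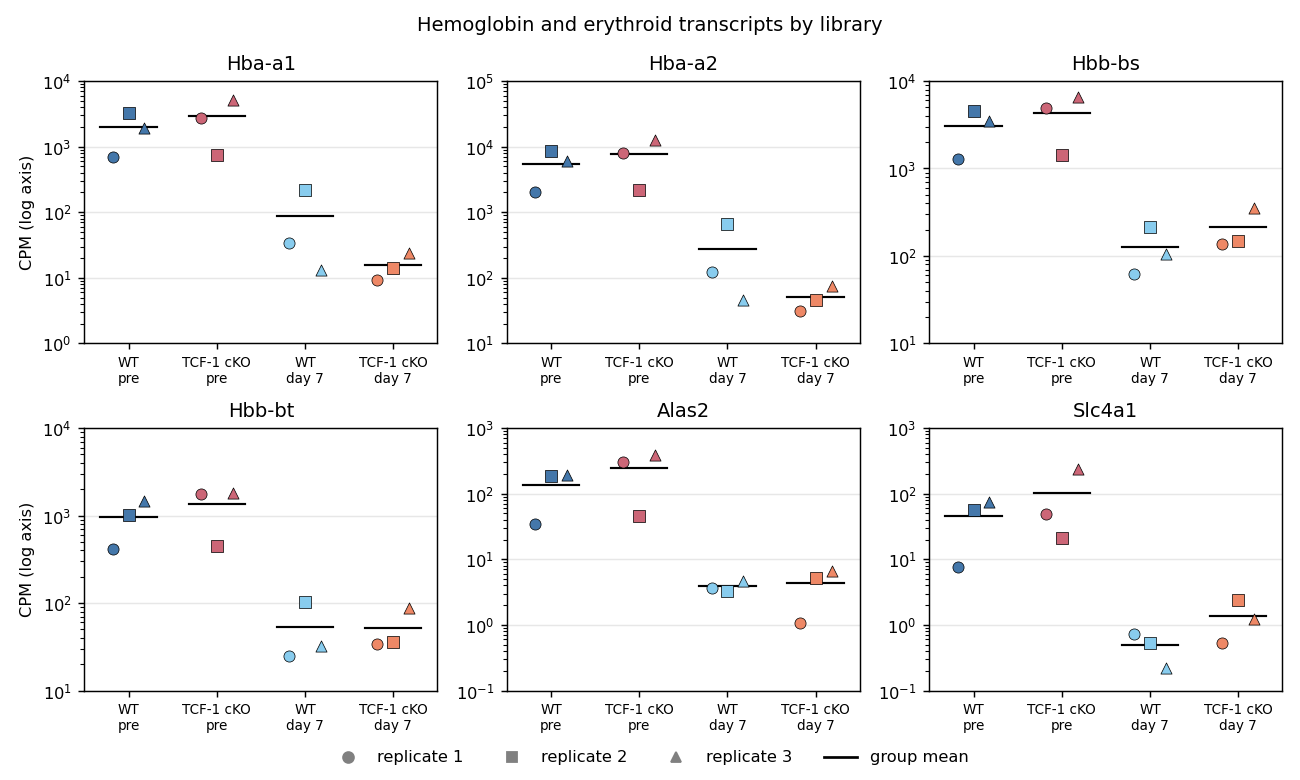
CPM of each member (log axis) in the 12 libraries, by group, with the group mean as a bar and the replicate number as the symbol. For every member all 6 pre-transplant libraries lie above all 6 day 7 libraries, and within a stage the genotypes overlap.

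The comparison of day 7 with the pre-transplant state asked how the transcripts of the libraries differed between these stages. Alloactivation, host strain, irradiation, the marrow graft and the cells held by the libraries changed together, so that they cannot be told apart. All 6 members fell in WT cells, and their mean CPM before transplant was 18.2-fold (Hbb-bt) to 93.5-fold (Slc4a1) that of day 7. CPM is scaled by library totals, and with that scaling the median log2 change of all genes was itself -1.25 in WT cells. The edgeR fit, scaled by TMM in place of totals, gave smaller falls, from -3.09 (Hbb-bt) to -5.49 (Slc4a1). In the same edgeR quasi-likelihood fit 20% of 16790 genes passed a false discovery rate of 0.1 (10.3% fell and 9.7% rose), and the median member was at -3.38 on the log2 scale beside -0.30 over all genes tested. In TCF-1 cKO cells all 6 members fell too, with a median log2 change of -4.65 beside -0.29 over all genes, where 36.5% of 18535 genes passed, 16.8% fell and 19.7% rose. The day 7 and pre-transplant libraries did not overlap for any member in either genotype (two-sided exact permutation p = 0.10 each, the smallest 3 against 3 allow). Among all genes tested, 38.3% in WT and 54.4% in TCF-1 cKO cells were lower at day 7 without overlap.

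The alpha chain genes changed the most in TCF-1 cKO cells. Hba-a2 held 8127, 2209 and 12520 CPM before transplant in the TCF-1 cKO libraries and 31.04, 46.2 and 74.1 CPM at day 7. In WT cells it went from 2025, 8490 and 6063 CPM to 124, 657 and 46.2 CPM. The fall of Hba-a2 was -5.80 ± 0.80 (log2, SE) in TCF-1 cKO cells (adjusted p = 0.00077) and -3.11 ± 0.98 in WT cells (adjusted p = 0.061, both edgeR quasi-likelihood test). Its near-copy Hba-a1 showed the same pattern at a lower level. Hba-a1 held 2732, 750 and 5207 CPM in TCF-1 cKO libraries before transplant and 9.38, 14.0 and 24.2 CPM at day 7. In WT libraries Hba-a1 went from 689, 3231 and 1954 CPM to 33.8, 216 and 13.0 CPM. The fitted fall of Hba-a1 was -6.10 ± 0.88 in TCF-1 cKO and -3.25 ± 1.05 in WT cells (adjusted p = 0.00093 and 0.066).

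The beta chain genes fell by a similar size in both genotypes. Hbb-bs held 1285, 4506 and 3514 CPM in WT libraries before transplant and 62.0, 214 and 107 CPM at day 7. In TCF-1 cKO libraries it held 4946, 1419 and 6499 CPM and then 138, 148 and 358 CPM. The day 7 values of both genotypes thus lay in 1 range, far under the pre-transplant range. The change of Hbb-bs was -3.51 ± 0.69 in WT and -2.86 ± 0.69 in TCF-1 cKO cells (adjusted p = 0.0092 and 0.013). Hbb-bt, the less abundant beta gene, held 417, 1024 and 1484 CPM and then 25.1, 103 and 32.6 CPM in WT libraries. In TCF-1 cKO libraries Hbb-bt held 1783, 451 and 1821 CPM and then 33.7, 35.4 and 87.1 CPM. Its change was -3.09 ± 0.77 in WT and -3.21 ± 0.68 in TCF-1 cKO cells (adjusted p = 0.026 and 0.0070).

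Alas2 and Slc4a1, which serve the red cell in other ways than as globin chains, fell as well. Alas2 held 34.0, 186 and 191 CPM in WT libraries before transplant and 3.72, 3.34 and 4.63 CPM at day 7. In TCF-1 cKO libraries Alas2 held 304, 45.1 and 390 CPM and then 1.08, 5.18 and 6.61 CPM. Its change was -4.17 ± 0.74 in WT and -4.41 ± 0.94 in TCF-1 cKO cells (adjusted p = 0.0057 and 0.0075). Slc4a1 was the rarest member. It held 7.68, 56.4 and 75.4 CPM in WT libraries and 49.9, 21.1 and 237 CPM in TCF-1 cKO libraries before transplant. At day 7 it held 24, 15 and 4 counts in WT (0.737, 0.533 and 0.221 CPM) and 10, 44 and 30 counts in TCF-1 cKO libraries (0.539, 2.40 and 1.23 CPM). The change of Slc4a1 was -5.49 ± 1.03 in WT and -4.89 ± 1.06 in TCF-1 cKO cells (adjusted p = 0.0073 and 0.0081). At 4 counts its 95% Clopper-Pearson interval ran from 0.0601 to 0.565 CPM, so that its day 7 levels are known within a wide range only.

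**Figure D2:**
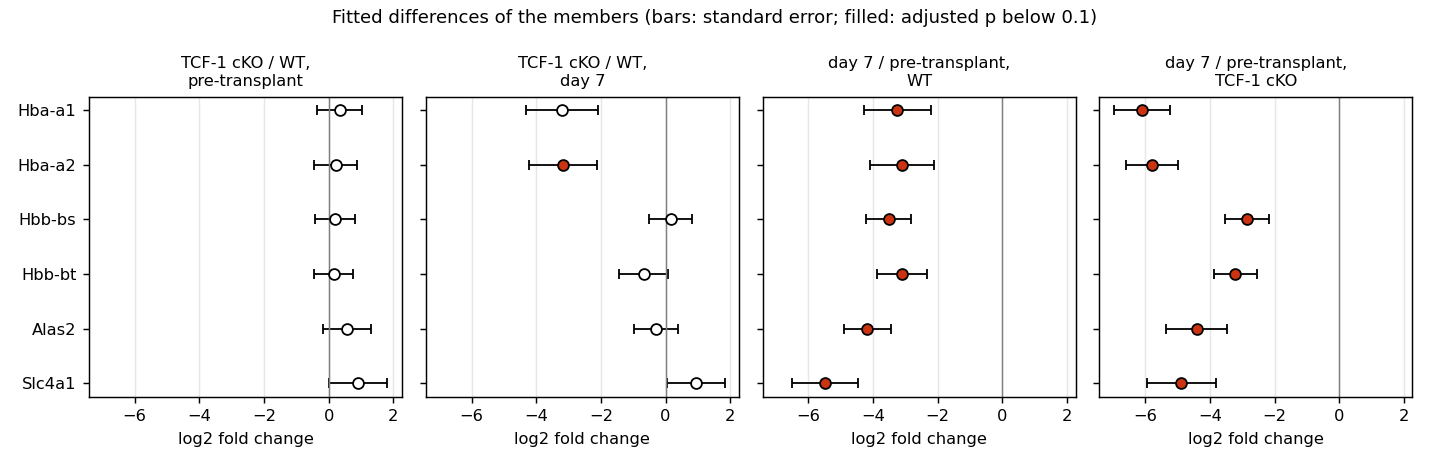
Fitted log2 fold change of each member in the 4 comparisons, with its standard error as a bar and a filled point where the adjusted p was below 0.1. All 6 members are filled and below 0 in both stage comparisons, while Hba-a2 alone is filled between genotypes at day 7.

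The call of all 6 members in TCF-1 cKO cells held when any 1 library was left out, including the one with the CD4 source label. In WT cells 3 to 6 members kept the call. Without the third WT pre-transplant library, or without the first WT day 7 library, 3 were called, Hbb-bs, Alas2 and Slc4a1, in fits that called 8.37 and 10.9% of genes in place of 20%. Scaling by library totals in place of TMM moved the median of all genes to -1.25 in WT and -1.89 in TCF-1 cKO cells, and the members then lay between -4.19 and -6.51 and between -4.33 and -7.52, below that median in each case.

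Transcripts of other cell types moved with the members between stages. All 10 B-cell markers were called lower at day 7 in both genotypes, with median log2 changes of -7.07 in WT and -5.72 in TCF-1 cKO cells. The sum of 12 myeloid markers was 1954 to 3918 CPM before transplant and 89.2 to 530.8 CPM at day 7. In the fits 9 of the 12 were called lower in WT cells (median log2 change -2.71). Only 4 were called lower in TCF-1 cKO cells (median -1.72), beside 10.3 and 16.8% of all genes in WT and TCF-1 cKO cells. The sum of 8 megakaryocyte and platelet markers was 31.8 to 55.3 CPM and then 1.06 to 3.84 CPM, and of these Gp1bb was at 0 in all TCF-1 cKO day 7 libraries. Conversely, 11 of 13 T-cell markers were called higher at day 7 in each genotype. The part of these cells in the change of the members was not tested. Within the pre-transplant stage, the first WT library had the lowest globin share (0.442%) and the highest B-cell sum (18290 CPM), and the second TCF-1 cKO library had the next lowest share (0.483%) and the lowest B-cell sum (10140 CPM).

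**Figure D3:**
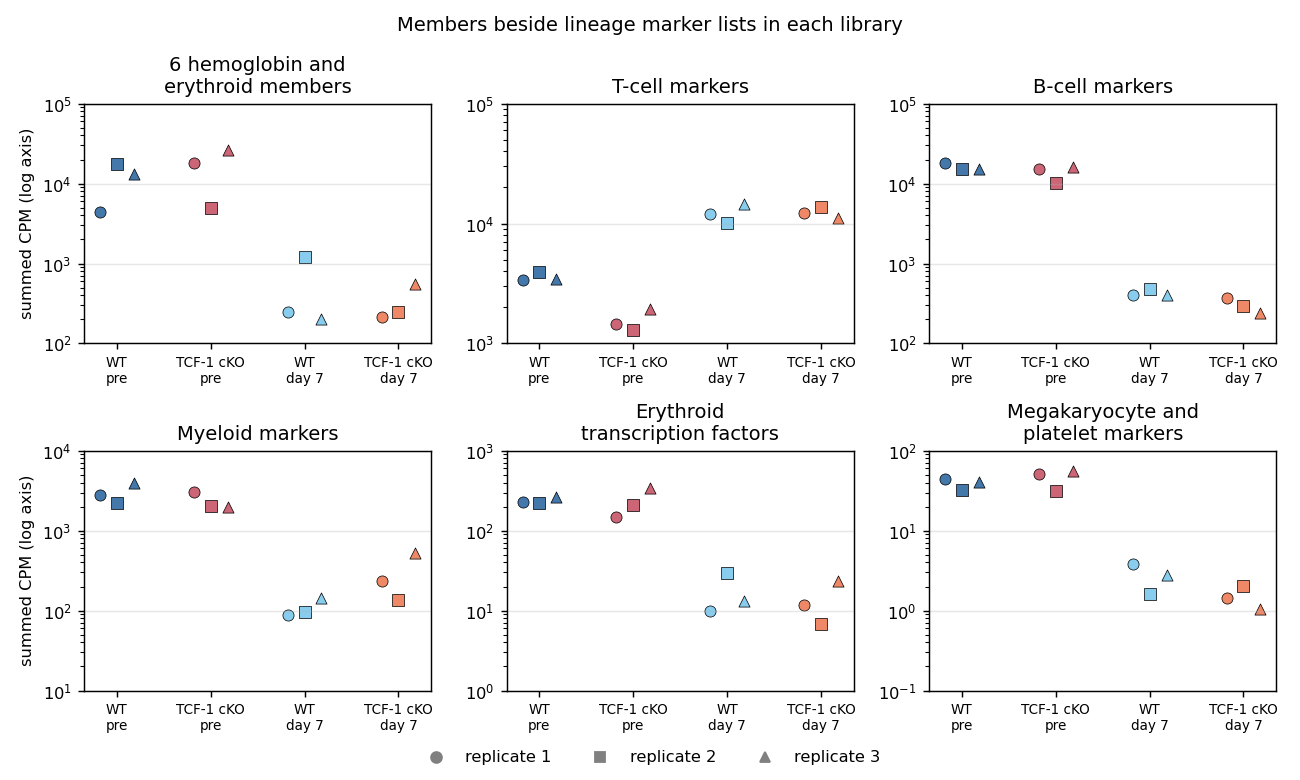
Summed CPM (log axis) of the 6 members and of 5 fixed gene lists in each library, by group, with the replicate number as the symbol. The members, B-cell, myeloid, erythroid factor and megakaryocyte sums are higher in all pre-transplant libraries than at day 7, and the T-cell sum is lower.

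Before transplant, the comparison of TCF-1 cKO with WT cells asked how the libraries of the genotypes differed. No member was called. All 6 fitted values were above 0, from 0.15 ± 0.61 for Hbb-bt to 0.91 ± 0.89 for Slc4a1 (log2, SE; adjusted p from 0.57 to 0.90, edgeR quasi-likelihood test). No member had an unadjusted p under 0.05, as 17.7% of genes had, while edgeR called 0.0373% of 18757 genes in this comparison. The other tools called no member either, where limma-voom called 0.0107% and DESeq2 7.74% of genes. No member separated the genotypes without overlap, as 27.8% of genes did. The direction was not stable. Without the third TCF-1 cKO library, the one with the most globin, all 6 values fell below 0, from -0.20 for Alas2 to -0.96 for Slc4a1. The 3 libraries of a group differed from each other by more than the groups did: mean globin share was 1.16% ± 0.65 (SD, n = 3) in WT and 1.62% ± 1.07 in TCF-1 cKO libraries (two-sided exact permutation p = 0.40). The T-cell sum was 3359 to 3967 CPM in WT and 1293 to 1942 CPM in TCF-1 cKO libraries. The sum of 6 plasma-cell markers was 1005 to 2436 and 481.7 to 808.5 CPM. No T-cell marker and 1 plasma-cell marker was called. The part of these cells in the values of the members was not tested.

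At day 7, the comparison of TCF-1 cKO with WT cells asked how the libraries of the genotypes differed after transplant. Hba-a2 was the only member called, at -3.18 ± 1.06 (log2, SE; adjusted p = 0.093, edgeR quasi-likelihood test), in a fit that called 17.9% of 16026 genes (15.4% lower and 2.51% higher). Both alpha genes had an unadjusted p under 0.05, as had 28.1% of all genes, and no member separated the genotypes without overlap, as 42.8% of genes did. Hba-a1 just missed the threshold at -3.21 ± 1.12 (adjusted p = 0.11, uncalled), and both alpha genes summed to 1 row were called at -3.19 ± 1.06 (adjusted p = 0.095). The beta genes gave 0.16 ± 0.66 for Hbb-bs and -0.68 ± 0.76 for Hbb-bt (adjusted p = 0.89 and 0.58), Alas2 gave -0.29 ± 0.68 (0.80) and Slc4a1 gave 0.93 ± 0.90 (0.52). The median of the 6 members was -0.49 beside 0.15 over all genes.

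The alpha globin values of the genotypes overlapped at day 7. For Hba-a2 the third WT library, at 46.2 CPM, lay inside the TCF-1 cKO range of 31.04 to 74.1 CPM, so that the groups overlapped (two-sided exact permutation p = 0.30). The second WT library held 657 CPM and set the WT mean. Without that library the value of Hba-a2 shrank to -1.18 (adjusted p = 0.29, edgeR quasi-likelihood test). Without the first WT library it was -3.73, and without 1 of the TCF-1 cKO libraries it lay between -3.07 and -3.55 (-3.18 without the one with the CD4 source label), all uncalled (adjusted p from 0.14 to 0.25 by that test). These 5 fits called 0 to 2 genes of all tested, so that the loss of the call was not particular to alpha globin. Without the third WT library Hba-a2 was at -3.76 and Hba-a1 at -3.79, both called (adjusted p = 0.010 and 0.015), in a fit that called 29.1% of genes.

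Markers of other cells also differed between the genotypes at day 7. The B-cell sum was 405.7, 478.1 and 405.0 CPM for WT, against 369.9, 296.2 and 237.6 CPM for TCF-1 cKO cells. The plasma-cell sum was 122.7, 71.5 and 74.1 CPM against 48.01, 47.9 and 48.02 CPM. Neither sum overlapped between genotypes, as was so for 42.8% of all genes tested. Of 10 B-cell markers none was called, and of 4 plasma-cell markers tested 1 was called lower in TCF-1 cKO cells. The myeloid sum was 89.2 to 145.6 CPM in WT and 134.1 to 530.8 CPM in TCF-1 cKO libraries. Of 12 myeloid markers 2 were called higher (S100a9 and Lyz2) and 1 lower (Elane) in TCF-1 cKO cells, beside 2.51 and 15.4% of all genes. The part of these other cells in the values of the members was not tested.

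**Figure D4:**
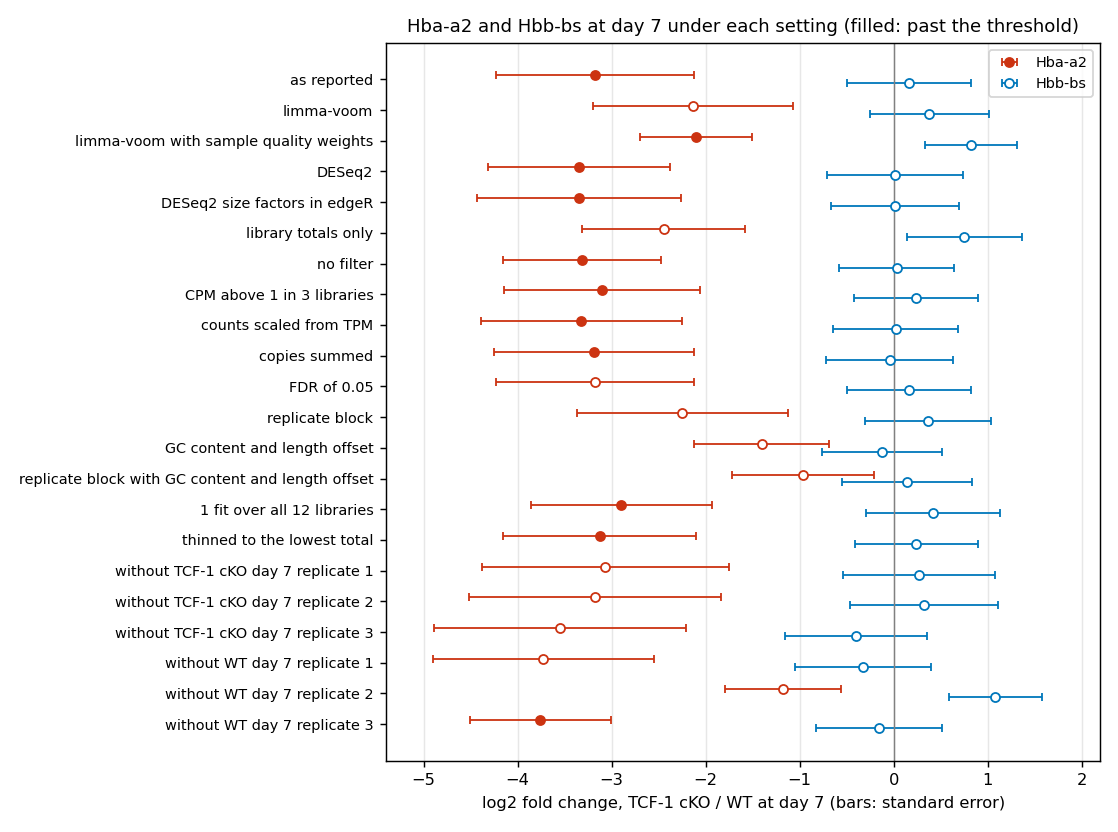
Fitted log2 fold change of Hba-a2 and Hbb-bs between TCF-1 cKO and WT cells at day 7, with its standard error, under the reported fit and each other setting; a filled point passed that setting's threshold. Hba-a2 is below 0 under each setting shown, from -0.96 to -3.76, and Hbb-bs lies on both sides of 0. With copies summed, the points are the summed row of both alpha genes and that of both beta genes.

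The difference between genotypes did not pass a test of its change between stages. The interaction was -2.98 ± 1.29 for Hba-a2 and -3.15 ± 1.37 for Hba-a1 (log2, SE; adjusted p = 0.29 each, edgeR quasi-likelihood test), and no member was called where 0.00465% of 21526 genes were. Both alpha genes had an unadjusted p under 0.05, as had 15.7% of all genes, and DESeq2 called these 2 in a fit that called 7.96% of genes. limma-voom called no member and 0.00465% of genes. For the other members the interaction ran from -0.51 ± 1.13 for Alas2 to 0.36 ± 1.33 for Slc4a1.

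Alpha and beta globin, which are made together in red cell precursors, kept a steady ratio before transplant but not at day 7. This ratio was examined after the values had been seen. Hba-a1 and Hba-a2 together gave 1.60, 2.12 and 1.60 counts for each count of Hbb-bs and Hbb-bt in the WT pre-transplant libraries, and 1.61, 1.58 and 2.13 in the TCF-1 cKO ones. At day 7 it was 1.82, 2.76 and 0.425 in WT libraries and 0.235, 0.329 and 0.221 in TCF-1 cKO libraries. All 6 pre-transplant libraries thus held more alpha than beta, all 3 TCF-1 cKO day 7 libraries held more beta than alpha, and the WT day 7 libraries were split. The log2 ratio at day 7 was -1.96 ± 0.31 (SD, n = 3) in TCF-1 cKO and 0.36 ± 1.42 in WT libraries, without overlap (two-sided exact permutation p = 0.10, the smallest possible). Among all genes tested, 42.8% separated the genotypes at day 7 without overlap. On TPM, which takes length into account, the ratio was 1.85 to 2.41 before transplant and 0.257 to 0.387 in TCF-1 cKO cells at day 7.

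The base composition of the libraries moved with this ratio at day 7. Weighted by counts, GC content was 52.5, 53.8 and 50.1% in the WT and 48.3, 49.3 and 48.1% in the TCF-1 cKO day 7 libraries, in the same order as the ratio among these 6. The alpha transcripts have a GC content of 57.2% (Hba-a1) and 56.9% (Hba-a2), and the beta transcripts 51.3% (Hbb-bs) and 50.8% (Hbb-bt). Before transplant the second TCF-1 cKO library had the lowest GC content of all 12, 47.4%, and a ratio of 1.58. When each library was offset for its trend on GC content and length, the day 7 value of Hba-a2 went from -3.18 to -1.40 ± 0.72 (adjusted p = 0.31) and that of Hba-a1 to -1.25 ± 0.77 (adjusted p = 0.39). This fit called 3.21% of all genes in place of 17.9%. The stage comparison kept all 6 calls in both genotypes under this offset.

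**Figure D5:**
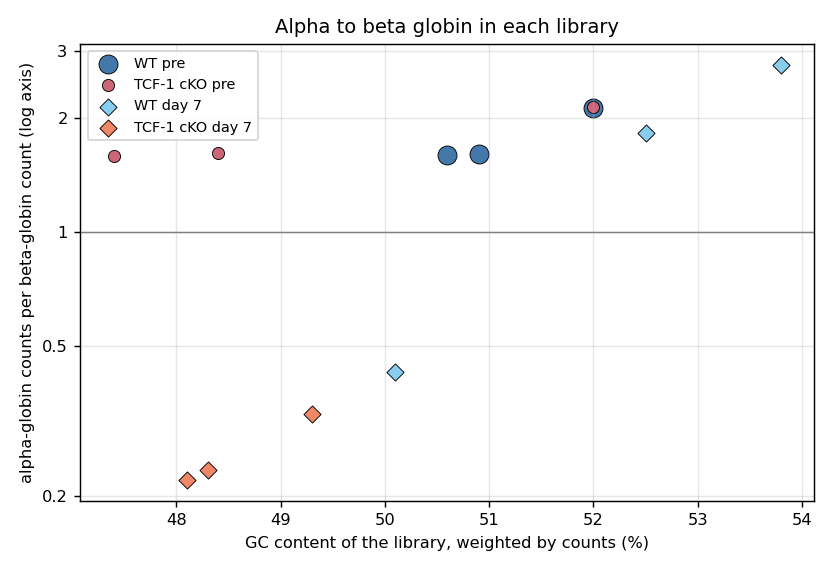
Alpha-globin counts per beta-globin count (log axis) against the count-weighted GC content of each library, with 1 point for each of the 12 libraries; WT and TCF-1 cKO points coincide at 52.0% GC before transplant. Pre-transplant points run from 1.58 at 47.4% to 2.13 at 52.0%, and day 7 points run from 0.221 at 48.1% to 2.76 at 53.8%.

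Reads cannot always be assigned to 1 globin gene of a pair. Of the stretches of 31 bases in the main transcripts, the unit by which Kallisto assigns reads, 71.3% of those in Hba-a1 also occur in Hba-a2 and 91.0% the other way. For the beta genes 66.9% of those in Hbb-bs occur in Hbb-bt and 59.4% the other way, and alpha and beta share none. The split within each pair is therefore an estimate. Hba-a1 took 21.4 to 29.4% of alpha counts across the 12 libraries. Hbb-bt took 18.5 to 29.7% of beta counts before transplant, and 23.4 to 32.4% in WT and 19.4 to 19.6% in TCF-1 cKO libraries at day 7, where the genotypes did not overlap (two-sided exact permutation p = 0.10). The levels of 42.8% of all genes tested did not overlap there either. The files count reads against reference transcripts, which carry the beta genes of the C57BL/6 haplotype, whereas BALB/c mice carry a different beta haplotype, and host reads were not separated from donor reads.

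Set in order by TPM, Hba-a2 was the most abundant member in all pre-transplant libraries, followed by Hbb-bs, at a ratio between 1.89 and 2.29. Group means of Hba-a2 were 16130 ± 8376 TPM (SD, n = 3) in WT and 20430 ± 12630 TPM in TCF-1 cKO cells. Hbb-bs had means of 7528 ± 3580 and 9630 ± 5494 TPM. The spread of both genes over libraries was wide, but Hba-a2 exceeded Hbb-bs within every pre-transplant library. Hba-a1 followed at 4011 ± 2293 and 5481 ± 3888 TPM and Hbb-bt at 2049 ± 1198 and 2590 ± 1494 TPM. Alas2 stood far lower at 77.2 ± 50.4 and 124.8 ± 90.9 TPM, and Slc4a1 lowest at 10.6 ± 7.75 and 22.2 ± 24.4 TPM. At day 7 the order of the first pair turned in 4 of 6 libraries, with Hbb-bs above Hba-a2 in all 3 TCF-1 cKO libraries and 1 WT library.

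Alas2 and Slc4a1 were also set against globin within each library. Alas2 gave 7.70, 10.8 and 14.7 counts for every 1000 globin counts in WT and 17.3, 9.34 and 15.0 in TCF-1 cKO cells before transplant. At day 7 these were 15.2, 2.81 and 23.4 in WT and 5.08, 21.3 and 12.2 in TCF-1 cKO cells, a wider range that took in the pre-transplant values (two-sided exact permutation p = 0.70 and 0.90 for the stages within WT and TCF-1 cKO). The lowest value, 2.81, was that of the WT library with the most globin at day 7. Slc4a1 gave 1.74 to 9.09 counts per 1000 globin counts before transplant and 0.448 to 9.86 at day 7 (two-sided exact permutation p = 0.20 and 0.80).

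Alas2 and Slc4a1 have several annotated transcripts. Before transplant the 2037-base transcript took 60.9 to 83.1% of Alas2 counts and the 1892-base transcript 16.7 to 39.1%. At day 7, with 20 to 162 counts per library, the 2037-base transcript took between 25.9 and 100% and no group was uniform. The 4545-base transcript of Slc4a1, its longest, took at least 98.3% of Slc4a1 counts before transplant. In the first WT day 7 library it took 55.9% of 24 counts, with the remainder on short transcripts, and with counts scaled from TPM the log2 genotype difference of Slc4a1 at day 7 was -1.45 in place of 0.93, uncalled in both cases.

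Other genes of red cell development moved less uniformly than the members. Of 61 further erythroid symbols in 5 lists, 49 were tested between stages in WT cells, where 15 fell and 4 rose, beside 10.3 and 9.7% of all genes. In TCF-1 cKO cells 51 were tested, and 21 fell and 4 rose, beside 16.8 and 19.7% of all genes. Their median changes were -1.62 and -1.23, closer to the medians of all genes than the members were. Between genotypes none of 53 was called before transplant. Of 39 tested at day 7, TCF-1 cKO cells were lower for 5 and higher for 2, near the 17.9% of all genes called in that fit.

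Embryonic and minor globin genes were at or near 0. The only one tested was Hbq1b, a theta-like alpha-cluster gene, at 0 to 10.9 CPM before transplant and 0 to 0.872 CPM at day 7, with log2 changes of -2.93 in WT and -1.71 in TCF-1 cKO cells that were not called. Hba-x, the embryonic alpha-like gene, reached 2.22 CPM in 1 library, and Hbb-bh1 was at 0 in all day 7 libraries. Of the erythroid transcription factors, 3 of 8 tested fell in WT and 4 of 9 in TCF-1 cKO cells, beside 10.3 and 16.8% of all genes. The factors that fell included Lmo2 (-8.04 ± 0.73 in WT and -5.34 ± 1.05 in TCF-1 cKO, log2) and Bcl11a (-5.68 ± 0.67 and -4.07 ± 0.68), both of which B cells also express. Gata1, the master regulator of red cell genes, fell by 4.64 in WT cells (SE 1.30, adjusted p = 0.040, edgeR quasi-likelihood test) and was at -0.13 ± 1.11 in TCF-1 cKO cells (adjusted p = 0.94). The interaction for Gata1 had an adjusted p of 0.28 in edgeR. Gfi1b fell in TCF-1 cKO cells (-6.26 ± 1.505, adjusted p = 0.013, by the same test) and was at -2.18 ± 2.04 in WT cells (adjusted p = 0.53). Day 7 levels were low: all 9 factors together summed to 9.98 to 29.6 CPM in WT and 6.70 to 23.5 CPM in TCF-1 cKO libraries. Only 4 of the 9 had enough counts to be tested between genotypes at day 7, and Gata1 and Gfi1b were not among them.

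Red cell membrane genes fell in part, 4 of 15 in WT and 8 of 17 in TCF-1 cKO cells, and none rose. Among all genes tested, 10.3% fell in WT and 16.8% in TCF-1 cKO cells. In WT cells the membrane genes that fell included Ermap (-3.42 ± 0.73, log2), Rhag (-2.61 ± 0.93) and Epb41, a protein of the membrane skeleton (-1.95 ± 0.62). In TCF-1 cKO cells they included Aqp1, the water channel (-7.01 ± 1.33), Rhag (-2.55 ± 0.67), Epb41 (-1.96 ± 0.54) and Ermap (-1.23 ± 0.50). Gypc, the highest of the list by mean TPM, was not called in either. Between genotypes at day 7 Ank1 (2.83 ± 0.70) and Ermap (2.05 ± 0.60) were higher in TCF-1 cKO cells, although Ank1 held only 6.16 to 7.19 CPM there and 0.25 to 1.65 CPM in WT cells.

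Genes of heme synthesis and iron uptake, which every cell uses, moved in both directions between stages. In WT cells 3 of 13 rose and 2 fell, beside 9.7 and 10.3% of all genes. In TCF-1 cKO cells 2 rose and 3 fell, beside 19.7 and 16.8% of all genes. Slc25a37, the mitochondrial iron importer, fell in both (-2.92 ± 0.72 and -2.72 ± 0.49, log2). Abcb10, a mitochondrial transporter, also fell in both (-3.44 ± 0.81 in WT and -1.81 ± 0.73 in TCF-1 cKO cells). Tmem14c rose in WT cells (2.41 ± 0.58) and Tfrc, the transferrin receptor, rose in TCF-1 cKO cells (2.19 ± 0.58). At day 7, 5 of 13 were lower in TCF-1 cKO than in WT cells and none was higher, beside 15.4 and 2.51% of all genes. Slc25a38, a mitochondrial carrier needed for the first step of heme synthesis, was at -3.02 ± 0.59, Ppox at -2.69 ± 0.65 and Tmem14c at -2.43 ± 0.64. Alas2, the member of this pathway, was at -0.29 ± 0.68 and uncalled in the same fit.

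Among 16 late erythroid symbols, 6 fell and 1 rose of 12 tested in WT, beside 10.3 and 9.7% of all genes. In TCF-1 cKO cells 6 fell and 2 rose of 11, beside 16.8 and 19.7% of all genes. Car1, a carbonic anhydrase of red cells, fell in both genotypes (-5.05 ± 1.26 and -3.78 ± 0.88, log2). Alox15, the lipoxygenase of maturing reticulocytes, which macrophages and eosinophils also make, fell in WT cells (-7.57 ± 1.58). Prdx2, an antioxidant enzyme abundant in red cells and present in T cells, rose in both (2.07 ± 0.46 and 1.43 ± 0.53), and Bnip3l, which serves the clearance of mitochondria, rose in TCF-1 cKO cells (1.54 ± 0.36). Between genotypes none of 13 tested before transplant and none of 8 tested at day 7 was called, beside 0.0373 and 17.9% of all genes.

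Over the 12 libraries, Alas2 and Slc4a1 followed the mean log2 CPM of the 4 globin genes with Pearson r of 0.93 and 0.89. These are descriptions over libraries that differ in stage, and 17 and 120 of 21520 other genes had a higher r. The genes most like the globin mean were Osgin1 (0.97), Fam43a, Sap130, Axl, Sdc1, Ighv1-80, Sema4b, Igkv1-122, C3 and H2-Eb1 (0.94), several of which B cells, plasma cells or macrophages express. With the group means taken out, Alas2 and Slc4a1 kept r of 0.72 each, behind 641 and 603 other genes. The most similar genes were then Arsa (0.95), Gm15725, Ap5b1, Skiv2l, Gm5070, Scrn2, Tmem130, Asb1, Tssk6 and Ehmt2 (0.91), and none of the first set of 10 was among them.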

How the data were processed

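Donor CD8 T cells were profiled by RNA-seq in 12 libraries, 3 for each of 4 groups. Per the labels and the study's methods, cDNA was made from 1 ng of total RNA with SMART-Seq HT, libraries with Nextera XT, and paired-end reads were run on a NovaSeq. The submitters' processing notes name Kallisto 0.46.2, limma and mm9; the transcript release is not given in the sources used here. The deposited files hold, for 117497 Ensembl transcripts, estimated counts (reads assigned by the authors with Kallisto, not normalized) and TPM (the same, divided by length and scaled to a common total by the authors). Red cells were lysed where needed before sorting, which can change the level of the members.

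Here both were summed per gene by GENCODE M21 (116374 transcripts matched, 99.5 to 99.7% of counts), and summed counts were rounded to whole numbers. CPM divides by the library total. edgeR 4.0.16 (TMM, filterByExpr, quasi-likelihood test) was fitted on all genes for each pair of groups, and over 12 libraries for the interaction, with Benjamini-Hochberg adjustment and a false discovery rate of 0.1. Single values were compared by two-sided exact permutation tests. Likeness used log2 CPM with a prior count of 2. The fits were tested on simulated counts. limma 3.58.1 and DESeq2 1.42.0 were alternatives, with the settings given in the closing section (R 4.3.3, Python 3.11.15). Groups came from the labels. The members, lists and tests were chosen with earlier results of these data known. Named were all members in every library, at most 3 genes per list and comparison by p, the 3 highest of a list by TPM where they bear on it, and the 10 genes most like the globin mean. Some genes that this rule names are not reported here. Gene lists were not adjusted for separately. Of 12 libraries none repeated another: within a group the chi-square per degree of freedom was 22.5 or more. A floor of 3 counts corresponds to 0.0922 to 0.667 CPM.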

Additional observations from a re-analysis of the deposited data

How the results depend on the processing

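The fall of the members from the pre-transplant state to day 7 kept its direction in all 126 values refitted under other settings in TCF-1 cKO cells and in all 125 in WT cells. In TCF-1 cKO cells all 6 members stayed called under each of them, and in WT cells 3 to 6 members when 1 library was left out, 4 at an FDR of 0.05 (without both alpha genes) and 5 with counts scaled from TPM (without Slc4a1, adjusted p = 0.14 in edgeR). DESeq2 gave no adjusted p for Hba-a2 in WT cells and called the 5 others.

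The count of members called between genotypes at day 7, 1 as reported, where 17.9% of all genes were called, is given here with that share in parentheses. It was 0 with limma-voom (17%), library totals only (13.9%), an FDR of 0.05 (8.71%), the GC content and length offset (3.21%), the replicate block (12.7%) and the block with that offset (0.0125%). It was 2 with limma-voom with sample quality weights (47.4%), DESeq2 (28.2%), DESeq2 size factors in edgeR (18.7%), no filter (10.4%) and CPM above 1 in 3 libraries (22.2%, with 5 members tested). It was also 2 with copies summed (17.9%, where both alpha genes were the same 1 row), 1 fit over all 12 libraries (14.1%) and counts thinned to the lowest total (18.8%). Leaving out 1 library gave 0 to 2. For the change between stages it was 2 with DESeq2 (7.96%) and with no filter (1.72%), and 0 to 2 with 1 library left out, against 0 (0.00465%). The share of all genes called at day 7 ran from 0 to 29.1% with 1 library left out.

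Replicate numbers are shared between groups but same-numbered libraries did not deviate together: correlations of deviations ran from -0.13 to 0.17. The replicate block took the Hba-a2 value at day 7 to -2.25 (adjusted p = 0.25 in edgeR) and the calls in that comparison to 0; in the stage comparisons it kept all 6.

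Values that changed sign were uncalled before and after. Before transplant these were Hba-a1, Hba-a2, Hbb-bs and Hbb-bt with sample quality weights (-0.24, -0.26, -0.20 and -0.21), Hbb-bs and Hbb-bt with no filter (-0.024 and -0.095), the offset (-0.14 and -0.26) or the block with the offset (-0.29 and -0.34), and Hbb-bt in 1 fit (-0.0032). At day 7 they were Hbb-bt with weights (0.10) and Hbb-bs with copies summed (-0.044, the row of both beta genes) and the offset (-0.12). They were also Alas2 with library totals (0.14), the offset (0.49) and the block with the offset (0.17), and Slc4a1 with counts from TPM (-1.45). For the interaction they were Hbb-bt with limma-voom (0.077), with weights (1.09) and with copies summed (0.17, again the row of both beta genes), and Slc4a1 with counts from TPM (-1.95). With 1 library left out, ranges before transplant were -0.69 to 0.78 for Hba-a1, -0.63 to 0.64 for Hba-a2, -0.50 to 0.61 for Hbb-bs, -0.38 to 0.64 for Hbb-bt, -0.20 to 1.05 for Alas2 and -0.96 to 1.54 for Slc4a1. At day 7 they were -0.40 to 1.08 for Hbb-bs, -1.25 to 0.56 for Hbb-bt and -0.73 to 0.051 for Alas2. For the interaction they were -0.31 to 1.27 for Hbb-bs, -1.18 to 0.84 for Hbb-bt, -1.23 to 0.20 for Alas2 and -0.63 to 2.21 for Slc4a1.

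As a share of TPM, mean globin was 2.97% in WT and 3.81% in TCF-1 cKO cells before transplant and 0.133 and 0.0593% at day 7, since globin transcripts are short. The log2 alpha to beta difference between genotypes at day 7, chosen after the data were seen, stayed between -1.77 and -3.12 over TPM and each library left out, and that between stages in TCF-1 cKO cells between -2.63 and -2.95. By Spearman's rho, 3 of the 10 genes most like the globin mean were shared with Pearson's 10, and 7 of 10 with group means taken out. The causes of these shifts were not tested. With 3 libraries a group, exact tests cannot go below 0.10, and Slc4a1 at 4 to 44 counts limits its day 7 comparison.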
